A study of Mus musculus with 288 samples.

Results

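The mouse heart was sampled every 2 h over 2 circadian days, on the 24 arrays whose tissue label is heart, out of 288 arrays of 12 tissues in the whole series. Times are given as circadian time (CT) in hours, where CT0 is when light would have come on, and the heart arrays ran from CT18 to CT64. All animals were C57/BL6 mice with no genetic change or treatment named in the labels. They lived for 1 week under 12 h of light and 12 h of dark and were then kept in constant darkness. Each array held RNA of 3 mice pooled after extraction, with 1 array per time, so there was no replicate at any single time. The labels used here name neither the age nor the sex of the mice, nor which chambers of the heart were taken. Where heart was set against other tissues, skeletal muscle, aorta and lung of the same design were used, with 24 arrays each.

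The molecular clock is a feedback loop in which the proteins BMAL1 (from the gene Arntl) and CLOCK switch on genes of their own repressors, the period and cryptochrome proteins, which then shut the activators off. A second loop of nuclear receptors, REV-ERB (Nr1d1 and Nr1d2) and ROR, sets the daily swing of Arntl, and factors such as DBP carry the rhythm to other genes. In heart this clock is present in the muscle cells themselves, and heart rate, fuel choice and the response to load are all known to vary across the day.

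Markers of heart muscle cells were high and even on every array. The mean log2 intensity of 10 cardiomyocyte genes was 13.24 (SD 0.04, n = 24), against 9.47 in aorta, the next highest of the 12 tissues. On 4 of the 24 heart arrays a marker list of another cell type or chamber stood apart, meaning that its mean lay over 5 scaled median absolute deviations and over 1 log2 unit from the median of the heart arrays. The CT26 array read high for liver transcripts. Its mean over 14 hepatocyte markers was 10.44 against a median of 6.32, and all 14 were higher there than on any other heart array. Alb, the gene of serum albumin, read 13.64 at CT26 against a median of 7.90 on the others and 11.24 on the highest of them, at CT62. On that array 191 of 19938 genes lay more than 1 log2 unit above their median on the other arrays. Of these, 188 were more than 2 log2 units higher in liver than in heart, against 1199 of all 19938 genes. Atrial cardiomyocyte markers were high at CT40 (mean 9.12) and CT64 (8.85) against a median of 7.79. Their means at CT38 (8.70) and CT50 (8.67) were also raised, by less than the limit of 1 log2 unit. The CT38 and CT50 arrays were therefore kept where the 4 arrays were left out. Myl4, an atrial myosin light chain, read 12.23 at CT40, 11.42 at CT64, 11.39 at CT38 and 10.92 at CT50, against a lowest value of 7.91. Kidney tubule markers were raised at CT52 (7.14 against 6.02), led by Kap, an androgen-regulated kidney gene, at 9.69. Values without some or all of these arrays are given beside a number of the results below, not beside every one.

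**Figure D1:**
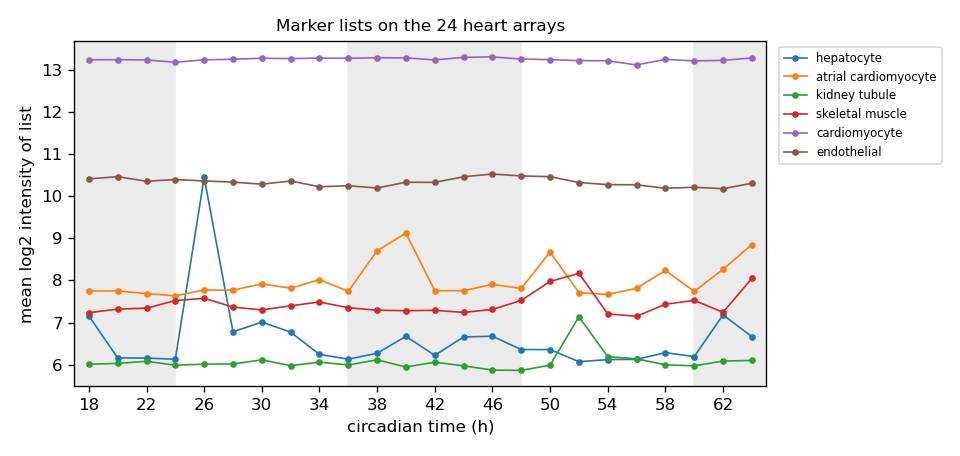
Mean log2 intensity of 6 marker lists (y axis) on each of the 24 heart arrays by circadian time in hours (x axis), with grey bands for subjective night. Hepatocyte genes rise to 10.44 at CT26, atrial genes to 9.12 at CT40 and 8.85 at CT64, and kidney tubule genes to 7.14 at CT52, while cardiomyocyte genes stay between 13.11 and 13.30.

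Heart genes followed a daily wave in a minority of cases, and most of the waves were shallow. A cosine wave of 24 h was fitted to log2 intensity with limma, and a gene is said to have a wave where the Benjamini-Hochberg adjusted p of the moderated F test over all genes is under 0.05. The p-values measure the spread of single pools around the fitted wave, with 24 arrays behind each value. Of 19938 genes, 1723 passed (8.64%), and 4106 had an unadjusted p under 0.05. The median peak-to-trough fold of those that passed was 1.21, with a 10th percentile of 1.14 and a 90th of 1.43. In 763 of them (44.3%) the fold was under 1.2, while it was over 1.5 in 122 genes (0.612% of those tested) and over 2 in 26. Since the fit is to both days at once, each day was also fitted alone. The peaks of both days lay within 4 h of each other in 1670 of the 1723 genes (96.9%), against 35.0% of the genes that did not pass. This is no independent check of the calls, because a gene whose days disagree is less likely to pass the joint fit. Of 13767 probe sets without a single gene symbol 96 passed (0.697%). Brighter genes were called more often: with the dimmer genes left out 1987 of 9969 passed, 1566 of them shared with the 1723. The share over all genes is therefore a low yardstick for lists of bright genes, and no list below was matched for brightness. Without the CT26 array 1640 genes passed (8.23%), 1579 of them shared, and without all 4 arrays that stood apart 1196 passed, of which 1157 were shared.

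Peak times were spread around the whole cycle, with more peaks in the subjective night. Of the 1723 genes, 321 peaked from CT0 to CT6, 371 from CT6 to CT12, 478 from CT12 to CT18 and 553 from CT18 to CT24. The fullest bin of 2 h, CT18 to CT20, held 206 genes, and the emptiest ones, CT4 to CT6 and CT6 to CT8, held 83 each. Of the 122 genes with folds over 1.5, 18 peaked from CT12 to CT14, 18 from CT0 to CT2, 16 from CT10 to CT12 and 15 from CT22 to CT24, against 1 from CT4 to CT6 and 5 from CT18 to CT20.

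**Figure D2:**
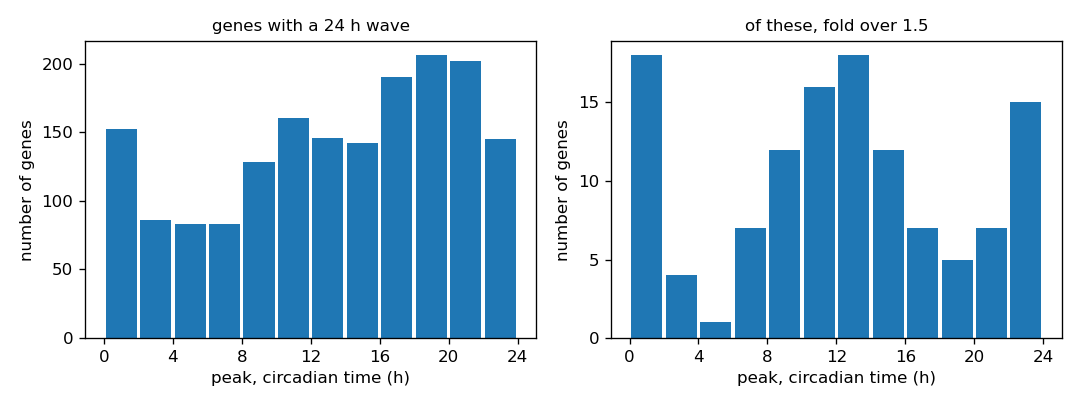
Number of genes (y axis) by fitted peak time in bins of 2 h of circadian time (x axis), for all 1723 genes with a 24 h wave (left) and for the 122 with a peak-to-trough fold over 1.5 (right). The left panel is fullest at CT18 to CT20 with 206 genes, and the right panel has its tallest bars at CT0 to CT2 and CT12 to CT14, with 18 genes each.

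All 13 measured core clock genes had a wave in heart, against 8.64% of all genes, with a median fold of 2.26 against 1.07 over all genes tested. Arntl ranged in log2 intensity from 5.80 at CT60 through a median of 7.33 to 8.76 at CT48. The 6 arrays within 3 h of its fitted peak lay between 8.45 and 8.76 and the 6 within 3 h of its trough between 5.80 and 6.64, so they did not overlap. Its fitted fold was 7.67 (95% interval 6.51 to 9.03) with a peak at CT23.2 (SE 0.149 h, limma adjusted p = 1.77e-15), and the days taken alone gave 7.45 and 8.08. Its partner Clock moved far less, from 9.17 to 10.09, with a fold of 1.65 (1.54 to 1.77) and a peak at CT0.0217. Nr1d1, which encodes the repressor REV-ERB alpha, peaked later, in the subjective day. It read from 8.80 at CT42 through a median of 10.07 to 11.52 at CT54, and 11.16 to 11.52 near its peak against 8.80 to 9.30 near its trough. Its fold was 5.9 (4.98 to 7.0, adjusted p = 8.68e-14) with a peak at CT6.77, ahead of the related Nr1d2 at CT10.2 with 2.26-fold. Ciart, a repressor of BMAL1 and CLOCK, had the largest fold of any gene in heart. It stayed between 6.18 and 6.69 on the 6 arrays near its trough, reached 8.79 to 9.54 near its peak, and was highest at CT58. Its fold was 8.13 (5.43 to 12.2) with a peak at CT9.81 (adjusted p = 7.53e-08).

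The period genes peaked around the end of the subjective day, Per1 at CT9.93 (2.86-fold, 2.19 to 3.73), Per3 at CT11.2 (3.55-fold, 3.07 to 4.11) and Per2 at CT12.5 (3.42-fold, 2.92 to 4.0). Per2 read 6.80 at CT28 and 8.93 at CT60, with a median of 7.96, and near its peak all 6 arrays were above the 6 near its trough. Per1 had a single high value of 8.69 at CT20 outside its main crest. The cryptochromes were apart in time, Cry2 at CT12.6 (1.65-fold) and Cry1 at CT17.4 (1.63-fold). The repressors Bhlhe40 (1.67-fold) and Bhlhe41 (1.93-fold) peaked at CT7.96 and CT10.1. Rora, an activator of Arntl, had the smallest wave of the list at 1.14-fold (1.06 to 1.23, adjusted p = 0.0457), and its arrays near peak and trough overlapped. Without the CT26 array the adjusted p of Rora was 0.0705.

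Of 15 clock output genes, 12 had a wave (80%, against 8.64% of all genes), with a median fold of 1.85 over the 15. This list and the others were chosen with earlier results of these data known, so a high share is no independent evidence. Dbp, an activator of many genes of drug and lipid metabolism, ran from 7.50 at CT50 through a median of 9.26 to 10.73 at CT58, with 10.34 to 10.73 on the arrays near its peak and 7.64 to 8.12 near its trough. Its fold was 8.03 (6.19 to 10.4, adjusted p = 2.31e-11) with a peak at CT10.2. The related factors Hlf (1.96-fold) and Tef (2.23-fold) peaked at CT12.0 and CT12.6. Nfil3, a repressor that acts on the same sites as DBP, peaked at CT20.6 with 2.84-fold (2.33 to 3.47). Tspan4, a membrane protein (2.47-fold), and Wee1, a kinase that holds back mitosis (2.24-fold), peaked at CT11.0 and CT13.3. Usp2 and Coq10b had folds of 1.85 and 1.89, Tsc22d3 1.54, Leo1 1.39, Klf9 1.38 and Nampt, the enzyme of NAD salvage, 1.27. The other 3, Klf10, Klf11 and Klf15, did not pass. Klf15, known in heart as a regulator of fuel use and of the transient outward current, had a fitted fold of 1.29 (1.09 to 1.52, adjusted p = 0.125), and its lowest value (7.98 at CT24) and highest value (9.12 at CT22) were on neighbouring arrays.

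**Figure D3:**
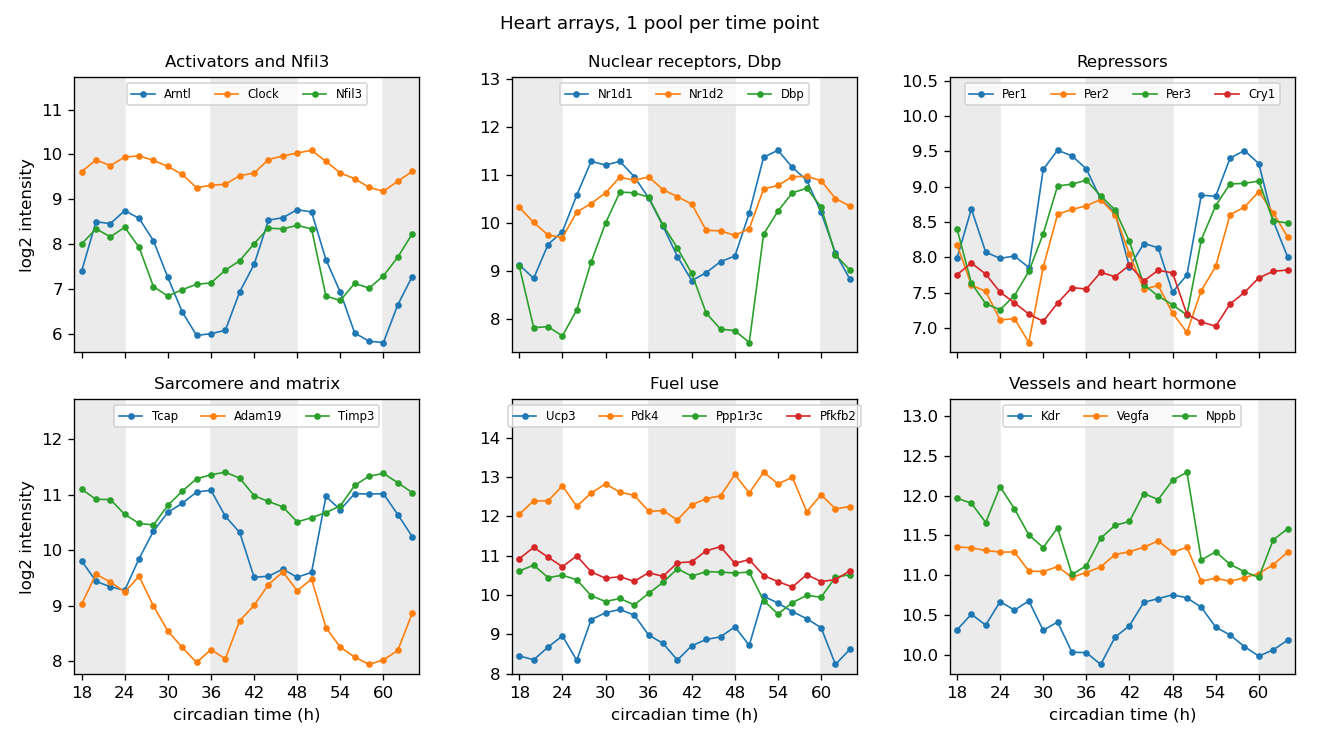
Log2 intensity (y axes) of 20 named genes on each of the 24 heart arrays by circadian time in hours (x axes), with 1 point per pool and grey bands for subjective night. Arntl is high at CT24 and CT48 where Dbp is low, and Tcap, which runs from 9.28 to 11.08, is high where Adam19 is low, a gene which runs from 7.94 to 9.61.

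Some promoters of these genes hold short sequences through which the clock is known to act, and a choice of those with a match and a wave in heart is shown here. RefSeq promoter windows (mouse build GRCm38.p6, around the start of each gene) were searched on both strands for exact matches to the E-box CACGTG, bound by BMAL1 and CLOCK, the D-box TTANGTAA, bound by DBP and NFIL3, the ROR element and the cAMP element TGACGTCA. The E-box was present for 4 of the 11 core clock genes with a window, 5 of 13 clock output genes and 5 of 16 of the other genes with the largest folds, against 8.09% of 27025 genes. Of the 5 clock output genes, Klf11 and Klf15 had no wave called. The D-box was found for Per3 and Coq10b (2.72% of all genes), the ROR element for Arntl and Leo1 (0.714%) and the cAMP element for Hlf and Rcan1 (2.03%). The stretches below are written from 5′ to 3′ on the strand named, with the matches in capitals. A match describes the sequence and was not tested as a site.
Ciart (chr3:95882247-95882364, minus strand): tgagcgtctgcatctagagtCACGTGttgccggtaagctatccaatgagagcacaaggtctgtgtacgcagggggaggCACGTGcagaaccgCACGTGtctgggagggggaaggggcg
Per1 (chr11:69098763-69098808, plus strand): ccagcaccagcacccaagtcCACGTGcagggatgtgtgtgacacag
Per3 (chr4:151044796-151044890, minus strand): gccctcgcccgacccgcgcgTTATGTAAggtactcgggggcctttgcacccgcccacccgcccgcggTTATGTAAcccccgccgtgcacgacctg
Cry1 (chr10:85185089-85185134, minus strand): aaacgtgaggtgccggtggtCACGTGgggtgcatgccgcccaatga
Tef (chr15:81802526-81802571, plus strand): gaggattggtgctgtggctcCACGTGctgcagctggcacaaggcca
Tspan4 (chr7:141476309-141476354, plus strand): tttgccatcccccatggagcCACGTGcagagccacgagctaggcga
Coq10b (chr1:55052588-55052717, plus strand): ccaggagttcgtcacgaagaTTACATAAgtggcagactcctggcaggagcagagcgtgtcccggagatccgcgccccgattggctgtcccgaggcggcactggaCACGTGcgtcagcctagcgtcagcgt
Leo1 (chr9:75441438-75441487, plus strand): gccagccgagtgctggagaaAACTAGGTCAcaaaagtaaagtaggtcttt
Adam19 (chr11:46054352-46054397, plus strand): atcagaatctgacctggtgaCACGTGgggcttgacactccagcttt
Slc41a3 (chr6:90619013-90619058, plus strand): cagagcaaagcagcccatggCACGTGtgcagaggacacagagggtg
Rcan1 (chr16:92466335-92466380, minus strand): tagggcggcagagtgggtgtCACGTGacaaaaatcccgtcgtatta

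The 3 E-boxes of Ciart lay from 44 to 116 bases upstream of the start, and its wave was 8.13-fold. Klf15 also had 3 E-boxes in its window, with a fitted fold of 1.29 that did not pass. The Cry1 E-box, 60 bases upstream, went with a peak at CT17.4 and 1.63-fold. E-box promoters were found at opposite phases, in Tspan4 with a peak at CT11.0 and in Adam19 and Rcan1 with peaks at CT22.5 and CT22.9.

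Outside the clock, the sarcomere was steady but for a handful of genes. Of 39 measured sarcomere and Z disc genes 5 had a wave (12.8%, against 8.64% of all genes). The median fold of the list was 1.06 against 1.07 over all genes. The count was 8 with array weights, a day term or quantile normalization, where 2064, 1828 and 2151 of all 19938 genes passed. It was 9 of 37 with dim genes left out, where 1987 of 9969 genes passed. Tcap, telethonin, which caps titin at the Z disc, had the largest fold outside the clock lists among genes above the median level of heart. It read from 9.28 at CT24 through a median of 10.34 to 11.08 at CT36, with 10.85 to 11.08 near its peak and 9.28 to 9.66 near its trough. The fold was 3.33 (2.88 to 3.85, limma adjusted p = 9.24e-12), with a peak at CT9.71 (SE 0.224 h) and folds of 3.41 and 3.29 on the separate days. Lmod2, which lengthens thin filaments, peaked at the same time (CT9.75) with 1.2-fold (1.13 to 1.28). Ankrd1, a stretch-responsive partner of titin, peaked at CT6.9 with 1.17-fold, and the Z disc protein Mypn at CT20.8 with 1.2-fold. The slow-type myosin gene Myh7b passed narrowly (1.15-fold, adjusted p = 0.0482) and did not without the CT26 array (adjusted p = 0.0696). The main contractile genes were close to flat. Actc1 (cardiac actin), Tnnt2 and Tnni3 (troponins) and Myh6 (the adult mouse cardiac myosin) had fitted folds from 1.01 to 1.03, with adjusted p of 0.591 or more. Myh6, for example, was lowest at CT56 (13.70) and highest at CT44 (13.97). The largest fitted fold among those that did not pass was 2.76 for Myl4 (adjusted p = 0.319), which was highest on the CT40, CT64, CT38 and CT50 arrays.

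Of 20 genes of protein turnover in muscle, 10 had a wave (50%, against 8.64% of all genes), and the median fold of the list was 1.14. Usp2, a deubiquitinating enzyme that is also a clock output, led them with 1.85-fold at CT11.6. Foxo3, a transcription factor that switches on atrophy genes, peaked at CT15.0 with 1.35-fold (1.25 to 1.46), while Foxo1 peaked at CT21.8 with 1.14-fold. Foxo3 read 9.72 to 9.88 near its peak and 9.23 to 9.63 near its trough. Ddit4, an inhibitor of the growth kinase mTOR, had 1.61-fold at CT17.5. The ubiquitin ligase parts Fbxo40 (1.19-fold) and Asb2 (1.25-fold) peaked at CT20.9 and CT18.7. The best known atrophy ligases did not pass. Fbxo32 (atrogin-1) had a fitted fold of 1.16 (1.05 to 1.29, adjusted p = 0.144) and Trim63 (MuRF1) 1.14 (1.03 to 1.27, adjusted p = 0.208).

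Of 30 measured ion channel and gap junction genes 7 passed (23.3%, against 8.64% of all genes), and the median fold was 1.08. Kcnh2, the channel of the rapid repolarising potassium current, ranged from 8.50 at CT20 through a median of 8.93 to 9.30 at CT36. It read 9.16 to 9.30 near its peak at CT11.3 and 8.62 to 8.85 near its trough, without overlap, with a fold of 1.5 (1.39 to 1.62, adjusted p = 3.87e-08). Gja1, connexin 43 of the ventricular gap junction, peaked later, at CT1.18, with 1.41-fold (1.31 to 1.51). It read 11.94 to 12.11 near its peak and 11.47 to 11.65 near its trough. Kcnj12, an inward rectifier, had 1.27-fold at CT16.7, and Kcnd2, of the transient outward current in mouse, 1.16-fold at CT8.13. Gjc1, connexin 45, had 1.16-fold at CT8.44 (adjusted p = 0.0286, and 0.0539 without the 4 arrays that stood apart). Kcnj5, part of the acetylcholine-gated channel of the atrium, had 1.19-fold at CT15.8 (adjusted p = 0.0111). Its adjusted p was 0.0816 with the atrial marker mean in the fit and 0.0849 without the 4 arrays that stood apart. Tbx5, a factor of atrial and conduction gene programmes, had 1.21-fold at CT15.2 and kept its call with the other atrial markers in the fit (adjusted p = 0.0197).

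Calcium handling was close to the share over all genes, with 3 of 27 genes passing (11.1%, against 8.64%). The median fold was 1.06, and 1 gene passed without the 4 arrays that stood apart. Rrad, a small GTPase that restrains the L-type calcium channel, was the exception in size, with 1.61-fold (1.37 to 1.9, adjusted p = 0.000460) and a peak at CT22.8. It was lowest at CT62 (9.72) and highest at CT50 (10.81), around a median of 10.34, and its arrays near peak and trough overlapped slightly (10.09 to 10.68 against 9.78 to 10.14). Itpr2, a calcium release receptor, had 1.15-fold, and Trdn, triadin of the release complex, 1.16-fold, and neither passed without the 4 arrays that stood apart (adjusted p = 0.0879 and 0.0758) or, for Trdn, without the CT26 array alone (0.0548). The pump Atp2a2 (SERCA2), its inhibitor Pln and the release channel Ryr2 had fitted folds of 1.02, 1.01 and 1.06 and did not pass (adjusted p = 0.859, 0.968 and 0.292).

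Several regulators of fuel choice had waves, while no gene was called in the mitochondrial steps that burn the fuel. None of 21 citric acid cycle genes and none of 72 respiratory chain genes passed in limma, with 3 and 17 at an unadjusted p under 0.05, median folds of 1.04 and 1.06, and a largest fitted fold of 1.22. Of 55 genes of fatty acid uptake and oxidation 15 passed (27.3%, against 8.64% of all genes), with a median fold of 1.08. On ranks 9 passed, and 1389 of all 19938 genes. Ucp3, a mitochondrial carrier that rises with fatty acid supply, ran from 8.24 at CT62 through a median of 8.95 to 9.97 at CT52. Near its peak it read 9.37 to 9.97 and near its trough 8.35 to 8.87, and its fold was 2.16 (1.71 to 2.73, adjusted p = 9.55e-05) with a peak at CT6.49. Cpt1a, which admits fatty acids to mitochondria, followed at CT8.11 (1.37-fold, 1.21 to 1.55), and Angptl4, a secreted inhibitor of lipoprotein lipase, preceded it at CT0.423 (1.55-fold). Genes of fat storage peaked at different times of the night. Dgat2, which makes triglyceride, peaked at CT14.9 (1.25-fold) and the droplet coat gene Plin4 at CT14.9 (1.29-fold), while Plin5, another coat gene, peaked at CT21.0 (1.22-fold) and Lpin1, of triglyceride synthesis, at CT21.5 (1.24-fold). Ppara, the fatty acid receptor, peaked at CT15.3 (1.22-fold). The call for Plin4 was lost without the 4 arrays that stood apart (adjusted p = 0.0796), as was that of the coactivator Ppargc1a (1.19-fold, 0.0655). Lpl, Fabp3, Acadm and Hadh, the brightest members of the list that did not pass, had fitted folds from 1.03 to 1.06.

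Of 46 glucose uptake and glycolysis genes 13 passed (28.3%, against 8.64% of all genes). The median fold was 1.08, and the regulators had the largest folds. Pfkfb2, the heart form of the enzyme that makes the activator of glycolysis, was lowest at CT56 (10.20) and highest at CT46 (11.23), around a median of 10.60. It read 10.72 to 11.23 near its peak at CT21.3 and 10.20 to 10.57 near its trough, with a fold of 1.66 (1.5 to 1.84, adjusted p = 2.35e-07). Its paralog Pfkfb3 peaked at nearly the opposite time, CT9.03, with 1.49-fold (1.34 to 1.65). Pdk4, the kinase that closes pyruvate dehydrogenase, peaked at CT3.81 with 1.6-fold (1.36 to 1.9), and its arrays near peak (12.25 to 13.12) and trough (11.91 to 12.29) overlapped. The phosphatases that reopen the enzyme, Pdp1 and Pdp2, peaked at CT8.44 (1.19-fold) and CT7.89 (1.37-fold). Pgam1, a step of glycolysis, and Slc16a1, a lactate transporter, peaked at CT17.1 (1.39-fold) and CT17.2 (1.22-fold), and Slc2a1, the glucose transporter GLUT1, at CT10.3 (1.22-fold).

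Glycogen control was rhythmic at some of the targeting subunits of its phosphatase. Of 23 glycogen genes 5 passed (21.7%, against 8.64% of all genes, median fold 1.07), 3 of them such subunits. Ppp1r3c read from 9.52 at CT54 through 10.41 to 10.76 at CT20, and its 6 arrays near the peak (10.44 to 10.76) were all above the 6 near the trough (9.52 to 9.99). Its fold was 1.88 (1.68 to 2.11, adjusted p = 2.79e-08) with a peak at CT19.8. Ppp1r3a and Ppp1r3b had 1.37-fold at CT13.6 and 1.53-fold at CT17.6. The subunit genes Ppp1r3d and Ppp1r3e, also in the list, were not among those that passed. Gys1, the muscle glycogen synthase, peaked beside Ppp1r3c at CT19.2 with 1.14-fold, and Phkg1, a subunit of phosphorylase kinase, had 1.26-fold. Without the 4 arrays that stood apart the adjusted p of Gys1 was 0.0878 and that of Phkg1 0.361. The phosphorylases Pygm and Pygb did not pass, with 1.07-fold (1.02 to 1.12) and 1.09-fold (1.03 to 1.15).

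**Figure D4:**
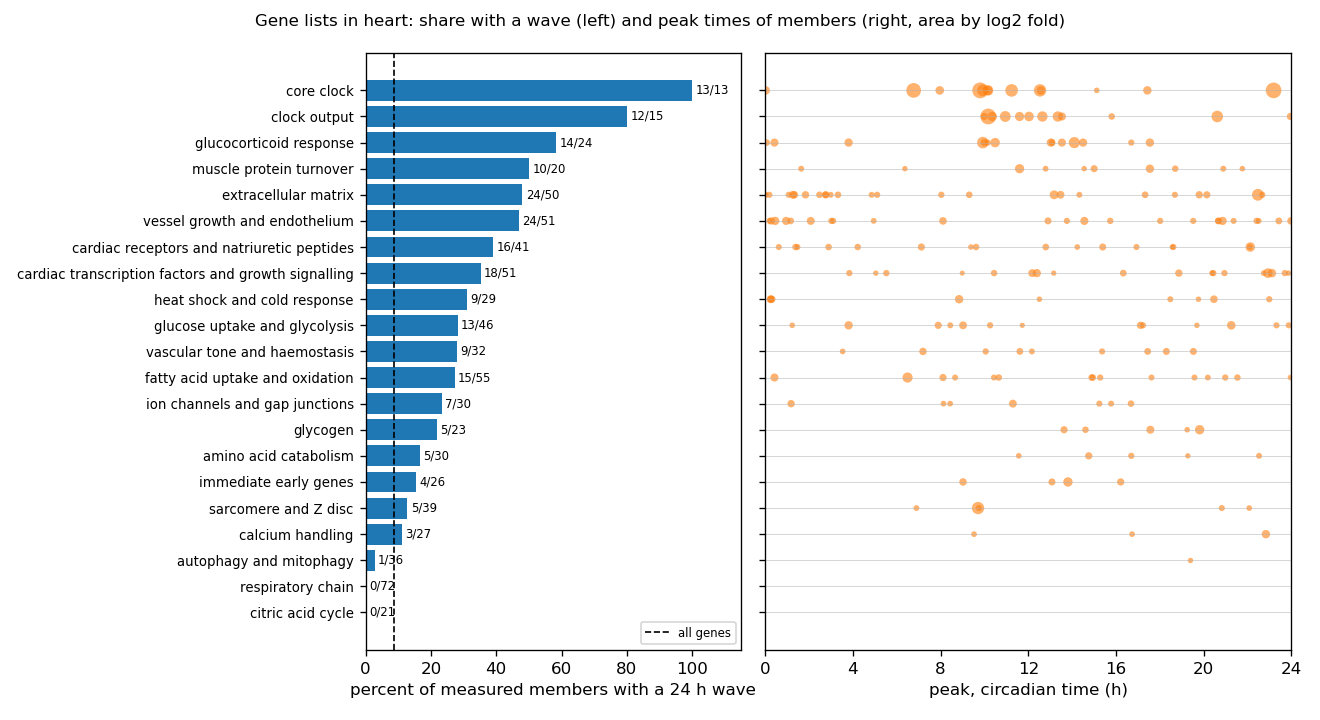
Percent of measured members with a 24 h wave in each of 21 gene lists (left, counts beside the bars, dashed line at 8.64% for all 19938 genes) and peak time in hours of circadian time of each member that passed (right, point area grows with log2 fold). The core clock list is at 13 of 13 and the respiratory chain at 0 of 72, and matrix and vessel genes have many points from CT20 to CT4.

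Of 51 vessel and endothelial genes 24 had a wave (47.1%, against 8.64% of all genes), with a median fold of 1.16 over the list, with 10 of the 24 peaks from CT18 to CT24 and 9 from CT0 to CT6. Kdr, the main receptor for vascular endothelial growth factor on endothelium, ran from 9.88 at CT38 through 10.36 to 10.75 at CT48. It read 10.37 to 10.75 near its peak at CT0.455 and 9.88 to 10.10 near its trough, without overlap, with 1.61-fold (1.48 to 1.74, adjusted p = 6.83e-09). The ligand Vegfa peaked earlier, at CT20.7, with 1.33-fold (1.26 to 1.41), on both days (1.28 and 1.4). Flt1, the decoy receptor for the same ligand, peaked at CT15.7 with 1.25-fold. Aplnr, the apelin receptor (1.56-fold), and Rhoj, an endothelial GTPase (1.41-fold), peaked with Kdr at CT0.954 and CT0.273. Pik3r1, a regulatory subunit of the insulin-responsive lipid kinase, peaked at CT14.6 with 1.56-fold (1.45 to 1.67). Egln3, an oxygen-sensing hydroxylase, peaked at CT20.9 with 1.58-fold, while its relative Egln1 (1.09-fold, adjusted p = 0.0547) and the hypoxia factor Epas1 (1.13-fold, adjusted p = 0.0693) did not pass. General endothelial markers moved too: 5 of 7 passed (Cdh5, Kdr, Pecam1, Tek and Tie1), and the mean of the 7 ranged from 10.17 at CT62 to 10.52 at CT46. In RNA of whole tissue, fewer cells of a type and less RNA per cell cannot be told apart, and the part of this in the vessel genes was not tested.

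Of 32 genes of vascular tone and haemostasis 9 passed (28.1%, against 8.64% of all genes, median fold 1.12). Agtr1a, the angiotensin receptor, peaked in the middle of the subjective day at CT7.2, with 1.42-fold (1.31 to 1.53, adjusted p = 1.09e-06). Its values ran from 10.44 at CT44 to 11.05 at CT52, and arrays near peak (10.83 to 10.999) and trough (10.44 to 10.60) did not overlap. Edn1, the constrictor endothelin, and Adm, the dilator adrenomedullin, peaked close together at CT19.5 and CT18.3 with folds of 1.34 and 1.34. Thbd, thrombomodulin, which turns thrombin into an anticoagulant, had 1.31-fold at CT17.4, and Ptgis, prostacyclin synthase, 1.32-fold at CT11.6. Ace, which makes angiotensin II, had 1.21-fold at CT15.4, with an adjusted p of 0.0145, and of 0.168 without the 4 arrays that stood apart. The smooth muscle actin gene Acta2 was not called (1.03-fold, 1.0 to 1.18).

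Extracellular matrix genes passed in 24 of 50 cases (48%, against 8.64% of all genes, median fold 1.17), 13 of them with peaks from CT0 to CT6. Adam19, a membrane metalloprotease expressed in the developing heart and its valves, came next to Tcap in fold by the same count. It read from 7.94 at CT58 through 8.80 to 9.61 at CT46, 9.25 to 9.61 near its peak and 7.94 to 8.25 near its trough. Its fold was 2.98 (2.62 to 3.38, adjusted p = 5.70e-12) with a peak at CT22.5. Timp3, an inhibitor of such proteases, peaked at CT13.2 with 1.74-fold (1.6 to 1.88), and Timp4, a family member enriched in heart, peaked with it at CT13.5 (1.48-fold). The protease Mmp14 peaked at CT1.27 with 1.52-fold (1.39 to 1.67). Of 14 collagen chains 6 passed, and all 6 peaked from CT1.33 to CT5.11. Col4a1 (1.4-fold), Col4a2 (1.41-fold) and Col15a1 (1.38-fold) belong to basement membrane and Col3a1 (1.27-fold) to fibrils. Of 11 collagen processing enzymes 7 passed, at scattered times. The prolyl hydroxylases P4ha1 and P4ha2 peaked at CT19.8 and CT17.3, the chaperone Serpinh1 at CT20.1, the lysyl hydroxylases Plod3 and Plod2 at CT18.7 and CT9.31, and the crosslinking oxidases Lox and Loxl1 at CT1.07 and CT2.74, with folds from 1.21 to 1.4. Fibroblast markers as a whole ranged only from 9.12 at CT42 to 9.31 at CT46, 4 of 7 passed, and their part in these results was not tested.

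Hormone and receptor genes passed in 16 of 41 cases (39.0%, against 8.64% of all genes, median fold 1.10). Nppb, the gene of B-type natriuretic peptide, which heart muscle releases under stretch, read from 10.97 at CT60 through 11.59 to 12.29 at CT50. Near its peak at CT22.1 it read 11.66 to 12.19 and near its trough 10.97 to 11.59, with a fold of 1.92 (1.64 to 2.23, adjusted p = 2.44e-06). Nppa, the atrial peptide, had 1.35-fold (1.17 to 1.55, adjusted p = 0.0119) with a peak at CT15.4, but its highest value, 12.36, was on the CT40 array. With the mean of the other atrial markers in the fit its fold was 1.22 and its adjusted p 0.0741. Corin, the protease that activates both peptides, had 1.15-fold at CT14.2, and Npr3, their clearance receptor, 1.29-fold at CT12.8. Thra, the main thyroid hormone receptor of heart, and Pde3a, which breaks down cyclic AMP, peaked in the early day at CT1.39 (1.29-fold) and CT2.89 (1.28-fold). Adcy6, an adenylyl cyclase that makes cyclic AMP, peaked at CT16.9 with 1.2-fold, and Chrm2, the muscarinic receptor through which the vagus slows the heart, at CT9.38 with 1.13-fold.

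Growth signals and transcription factors of heart passed in 18 of 51 cases (35.3%, against 8.64% of all genes, median fold 1.11). Of the 18, 9 peaked from CT18 to CT24. Rcan1, an inhibitor of the hypertrophy phosphatase calcineurin, read from 9.43 at CT36 through 9.79 to 10.53 at CT50. Its arrays near the peak (10.23 to 10.50) and the trough (9.43 to 9.62) were apart, with 1.97-fold (1.8 to 2.15, adjusted p = 6.63e-11) and a peak at CT22.9. Irs1, which passes on the insulin signal, peaked beside it at CT23.1 with 1.66-fold (1.46 to 1.88). Cebpb, a repressor of exercise growth in mouse heart, peaked near the opposite time at CT12.4 with 1.6-fold (1.39 to 1.84). Srf (1.25-fold) and Yap1 (1.23-fold), regulators of growth and cytoskeletal genes, peaked at CT20.4 and CT20.9, the stress gene Sesn1 at CT16.3 (1.3-fold) and the neuregulin receptor Erbb4 at CT10.4 (1.25-fold).

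Several genes outside every list had large folds. Tmem171, a membrane protein, ran from 7.05 at CT60 through 8.38 to 8.84 at CT22, 2.75-fold (2.36 to 3.22), with a peak at CT21.8. Slc41a3, which belongs to a family of magnesium carriers, ran from 9.03 to 10.69 with 2.69-fold (2.35 to 3.07) and a peak at CT1.2. For both, all 6 arrays near the peak were above the 6 near the trough. Fmo2, a flavin monooxygenase (2.7-fold), peaked at CT14.9. Fabp7, a lipid-binding protein (2.12-fold), Scd4, a fatty acid desaturase of mouse heart (2.02-fold), and Ypel2 (2.0-fold) peaked at CT2.52, CT7.27 and CT20.8. The 3 genes of detoxification Adh1 (2.07-fold), Gsta3 (1.95-fold) and Inmt (1.9-fold) had larger folds without the CT26 array. Adh1 read 11.27 and Gsta3 9.72 there, the highest values of each, and the folds without it were 2.66 for Adh1, 2.39 for Gsta3 and 2.16 for Inmt.

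Genes enriched in heart mostly had small fitted waves. With enrichment defined as a median at least 2 log2 units above that in each of 9 tissues other than skeletal muscle and aorta, 147 genes qualified and 46 had a wave (31.3%, against 8.64% of all genes), 42 without the CT26 array. The 8.64% was not matched for brightness, and brighter genes were called more often. The median fold of the 147 was 1.09. The 5 with folds over 1.5, named after their values were seen, were Tcap, Nppb, Rrad, Klhl38 (1.71-fold at CT9.47) and the muscle myosin kinase Mylk4 (1.67-fold at CT11.4).

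Waves of 12 h and differences between the days were called for 1 gene in all. A 12 h wave beside the 24 h one was called by limma for 1 gene (0.00502%), Ciart (adjusted p = 0.000479, peak-to-trough range of the 12 h part 1.31 log2 units), with 1120 genes at an unadjusted p under 0.05. No gene (0.0%) differed in level between the days (smallest limma adjusted p 0.235, 2522 at an unadjusted p under 0.05), and none (0.0%) differed in its wave between the days (smallest adjusted p 0.237, 1973 unadjusted).

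Set against other tissues, the waves of heart differed for 997 genes from skeletal muscle (5.0%), for 862 from aorta (4.32%) and for 2268 from lung (11.4%), in limma tests of the difference itself. With array weights the first 2 counts were 1949 and 1563. Among genes with a heart fold of at least 1.5, Adam19 and Slc41a3 were within the 8 with the smallest p of the difference in all 3 comparisons. The fold of Adam19 was 2.98 in heart against 1.37 in skeletal muscle, 1.33 in aorta and 1.06 in lung (adjusted p of the difference 2.03e-08, 1.70e-08 and 3.87e-13). That of Slc41a3 was 2.69 against 1.3, 1.3 and 1.11. Tmem171 had 2.75-fold in heart against 1.04 in skeletal muscle, 1.14 in aorta and 1.68 in lung, where it peaked at CT21.1 against CT21.8 in heart. The mean log2 intensity of Tmem171 was 6.23 in skeletal muscle and 6.28 in aorta, dim levels at which a wave can be missed. Tcap, though expressed in both striated muscles, had 3.33-fold in heart and 1.44 (1.29 to 1.6) in skeletal muscle (adjusted p = 2.72e-08), 1.25 in lung and 1.92 in aorta, where the difference did not pass (adjusted p = 0.077). In lung the mean log2 intensity of Tcap was 6.38, a dim level. Tef had 2.23-fold in heart, 1.35 in skeletal muscle, 3.17 in aorta and 2.73 in lung, and all 3 differences passed (adjusted p = 2.66e-07, 0.00149 and 0.000413). Rcan1 had 1.97-fold in heart, 1.1 in aorta and 1.09 in lung, and Pfkfb2 1.66 against 1.13 and 1.13. In the other direction, Nr1d1 swung 17.2-fold in aorta and 21.97-fold in lung against 5.9 in heart (adjusted p = 4.75e-06 and 7.85e-07), though 4.1-fold in skeletal muscle, and Nr1d2 5.97 in aorta against 2.26 in heart. Fasn, fatty acid synthase, had 3.78-fold in skeletal muscle and 1.15 in heart, Tshr, the thyrotropin receptor, 3.91 in aorta and 1.04 in heart, and Spon2, a secreted matrix protein, 5.79 in lung and 1.87 in heart, at nearly the same time in both. Aorta arrays carried brown fat markers at a mean of 10.65 against 7.97 in heart, with heart muscle markers that ranged between aorta arrays from 8.26 to 10.19, and the part of either in these differences was not tested.

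**Figure D5:**
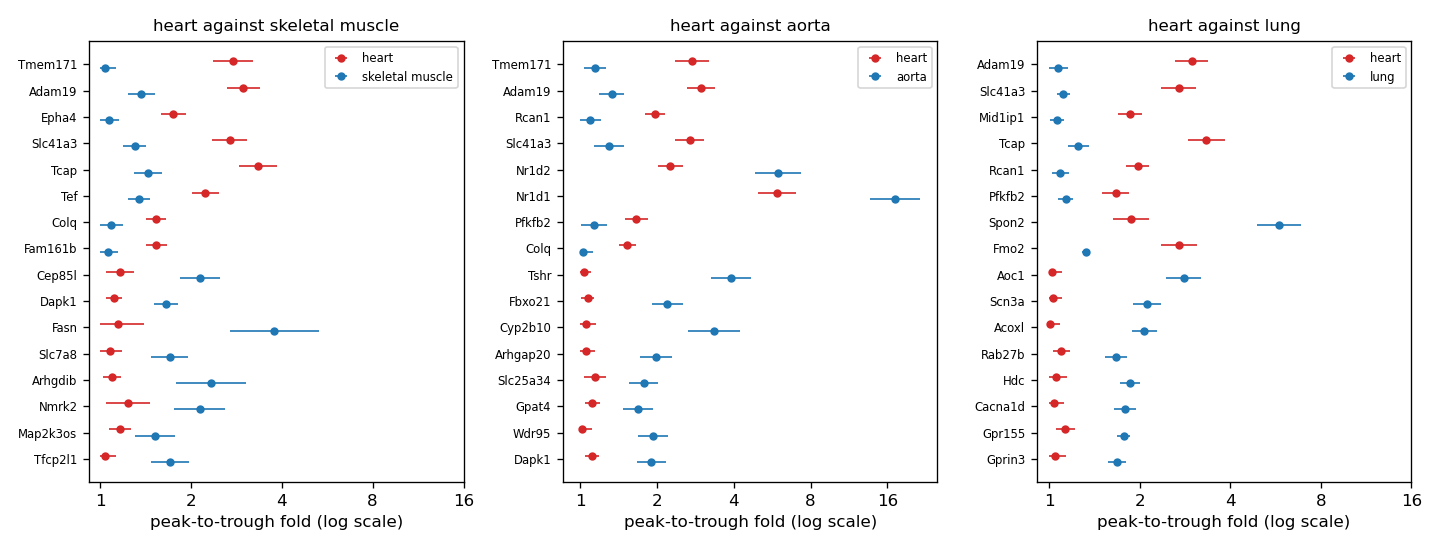
Fitted peak-to-trough fold with 95% interval (x axes, log scale, 1 means no wave) in heart (red) and in skeletal muscle, aorta or lung (blue) for the 16 genes named in each comparison. The upper 8 of each panel have heart folds of at least 1.5, such as Tcap at 3.33 against 1.44 in skeletal muscle, and the lower 8 have folds of at least 1.5 in the other tissue and no wave called in heart.

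Of all 19938 genes, 1723 had a wave in heart, 1020 in skeletal muscle, 1015 in aorta and 4176 in lung. The test of a difference from heart passed for 5.0%, 4.32% and 11.4% of all genes in these 3 comparisons. Of the 50 matrix genes 24 had a wave in heart, 7 in skeletal muscle, 10 in aorta and 30 in lung. The test of a difference from heart passed for 5, 5 and 20 of the 50. Of the 13 core clock genes 12, 12 and 13 passed in skeletal muscle, aorta and lung, and 7, 3 and 7 differed from heart in their wave.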

How the data were processed

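RNA of mouse heart was measured on 1 array per time point, and groups were taken from the tissue and time labels. The deposited table held linear intensity per probe set (6.9 to 45307.8), and the submitters' processing notes name Affymetrix Expression Console and GCRMA; versions and genome build are not given in the sources used here. The deposited intensity values were turned to log2 without further normalization. Of 35556 probe sets, 21789 had 1 gene symbol, 1621 several and 12146 none. The brightest probe set over all arrays stood for a gene, giving 19938 genes, none filtered.

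A cosine and a sine term of 24 h were fitted to the 24 heart arrays with limma 3.58.1 (R 4.3.3), with a moderated F test, a mean trend in the variance and Benjamini-Hochberg adjustment over all genes at 0.05. The fold is the fitted peak over the fitted trough. Terms of 12 h, of the day and of the wave by day were tested in fits of the same kind, and the wave was compared with skeletal muscle, aorta and lung by interaction terms. Each test was tested on simulated data. Alternatives covered single arrays, marker means as covariates, array weights, normalization, pseudocount, dim genes, ranks, probe set choice and added terms.

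The members, the 21 gene lists and the 20 marker lists were chosen with earlier results of these data known. Genes were named by rule: all clock genes, the 20 largest folds among genes above the median level, and up to 8 called members with the smallest p and up to 4 bright uncalled members per list. Each tissue pair added 8 genes with a heart fold of at least 1.5 and 8 with such a fold in the other tissue and no call in heart. The gene called for a 12 h wave and some markers of arrays that stood apart were also named. No gene was named for the day term, for which none was called. Ddit4, Angptl4, Plin5, Timp4, Mt1, Klhl38, Mylk4, the collagen enzymes and the collagen and endothelial subgroups were named after their values were seen.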

Additional observations from a re-analysis of the deposited data

Results flagged for a closer look

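The wave differed between heart and another tissue, by the limma test of the difference, for 997 genes against skeletal muscle, 862 against aorta and 2268 against lung. Of these, 118, 117 and 391 had a wave called in both tissues, and 39, 49 and 143 of those had peaks at least 6 h apart. Over all 19938 genes, 352, 345 and 788 had a wave called in both tissues. A test of the difference picks out waves that are apart in time, so these counts are no independent evidence of shifted peaks. The 3 genes with such peaks and the smallest p in each comparison follow.

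Against skeletal muscle, Arrdc3 peaked at CT8.31 in heart (1.31-fold) and at CT16.6 in muscle (2.10-fold), with an adjusted p of the difference of 5.252e-08 in limma. Bace1 peaked at CT14.1 in heart (1.17-fold) and at CT3.60 in muscle (1.42-fold, adjusted p = 3.591e-07). Tnik peaked at CT20.4 (1.26-fold) and CT6.01 (1.30-fold, adjusted p = 4.662e-06). Against aorta, Vegfa peaked at CT20.7 in heart (1.33-fold) and at CT6.85 in aorta (1.29-fold, adjusted p = 9.886e-08). Cntfr peaked at CT16.0 (1.49-fold) and CT8.03 (2.06-fold, adjusted p = 9.886e-08). Slc16a1 peaked at CT17.2 in heart (1.22-fold) and at CT0.459 in aorta (2.04-fold, adjusted p = 2.593e-07). Against lung, Lpin1 peaked at CT21.5 in heart (1.24-fold) and at CT10.7 in lung (1.36-fold, adjusted p = 4.639e-11). Ank3 peaked at CT11.5 (1.13-fold) and CT23.5 (1.64-fold, adjusted p = 3.394e-10). Bmp6 peaked at CT16.4 in heart (1.44-fold) and at CT4.26 in lung (1.09-fold, adjusted p = 3.449e-10).

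Among 13767 probe sets without a single gene symbol, which no comparison above uses, 96 had a 24 h wave in heart (0.697%), and the largest fold was 3.53 with a peak at CT0.03.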

How the results depend on the processing

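The number of genes with a 24 h wave in heart stayed within 1.5 times the reported 1723 in every alternative run, from 1196 without the 4 arrays that stood apart (chosen after seeing the data) to 2151 after quantile normalization, with 1157 and 1639 genes shared. Of 147 named genes with a wave, 123 kept it in every alternative and 24 lost it in at least 1. The losses numbered 16 with ranks, 16 without the 4 arrays, 14 with a 12 h wave tested together, 11 with the atrial marker mean as a covariate and 5 without the CT26 array. The last 5 were Rora, Myh7b, Trdn, Ier5 and Phkg1. Array weights raised the genes that differ from skeletal muscle to 1949 and from aorta to 1563. Among lists, sarcomere members with a wave numbered 8 with array weights, a day term or quantile normalization. They numbered 9 of 37 with dim genes left out. Over all genes 2064 of 19938 passed with array weights, 1828 with a day term, 2151 after quantile normalization and 1389 with ranks. With dim genes left out 1987 of 9969 passed. Fatty acid members numbered 9 with ranks, heat shock members 14 with array weights and 15 with dim genes left out, and glycogen members 3 without the 4 arrays. Respiratory chain members numbered up to 3 and citric acid cycle members up to 1. The single 12 h call and the absence of calls for the day and for the wave by day held in all alternatives run. With each time point as a replicate block the genes that differ numbered 1053 for skeletal muscle, 731 for aorta and 2091 for lung. The residuals of same-time arrays correlated above 0.1 at 7, 11 and 13 of 24 times, not at every time as the rule for pairing asked, and the labels do not say whether 1 mouse gave several organs. The reported counts are therefore without the block. With 1 pool per time, the spread at a single time is unknown, and dim probe sets are limited by background.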

Other observations

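Genes known to respond to glucocorticoids, the adrenal hormones that rise before the active night in mice, had a wave in 14 of 24 cases (58.3%, against 8.64% of all genes, median fold 1.29). Of their peaks, 3 lay from CT0 to CT6, 4 from CT6 to CT12, 7 from CT12 to CT18 and 0 from CT18 to CT24. Zbtb16, a zinc finger repressor, read from 9.40 at CT28 through 10.73 to 11.57 at CT60, with 10.89 to 11.57 near its peak and 9.40 to 10.07 near its trough. Its fold was 2.61 (2.09 to 3.27, limma adjusted p = 2.24e-06) with a peak at CT14.1. Fkbp5, which dampens the glucocorticoid receptor, had 1.59-fold at CT14.5, and the metallothioneins Mt2 and Mt1 had 1.89-fold and 1.29-fold at CT10.5 and CT13.1. The list shares Per1, Tsc22d3, Klf9 and Klf15 with the clock lists, and Klf15 did not pass.

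Chaperone genes had a wave in 9 of 29 cases (31.0%, against 8.64% of all genes, median fold 1.18). The count was 14 with array weights, where 2064 of all 19938 genes passed. It was 15 with dim genes left out, where 1987 of 9969 genes passed. Cirbp, an RNA-binding protein that rises in the cold, read from 8.91 at CT48 to 9.87 at CT58, with 1.63-fold (1.43 to 1.86, adjusted p = 1.37e-05) and a peak at CT8.85. The cytosolic heat shock genes Hsp90aa1 (1.45-fold) and Hspa8 (1.13-fold) peaked at CT20.5 and CT19.8. Folding factors of the endoplasmic reticulum peaked a few hours later, Hspa5 (BiP) at CT0.243 (1.35-fold), Pdia4 at CT0.303 (1.39-fold) and Sdf2l1 at CT0.256 (1.51-fold). Of 26 immediate early genes 4 had a wave (15.4%, against 8.64% of all genes), led by Ier3 with 1.88-fold at CT13.8. Without the 4 arrays that stood apart 1 gene of the list passed. Of 30 genes of amino acid catabolism 5 passed (16.7%, against 8.64% of all genes), led by Prodh, proline dehydrogenase, with 1.38-fold at CT14.8. Of 36 autophagy genes 1 passed (2.78%), Atg9a with 1.12-fold (adjusted p = 0.0429, and 0.126 without the 4 arrays that stood apart). The autophagy count was 3 with array weights or with dim genes left out, with the shares over all genes given above for these settings. It was 2 after quantile normalization, without Atg9a, where 2151 of 19938 genes passed. With the red blood cell marker covariate it was 0, where 1692 genes passed.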
